A study of Caenorhabditis elegans with 2 samples.

Results

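The genes of the V1 sector of the vacuolar ATPase (V-ATPase) were taken as a listed set of 9 *C. elegans* genes, chosen by name: vha-8 to vha-15 and vha-18. They are 9 of 19973 protein-coding nuclear genes, and all 9 were found in the Ensembl annotation of WBcel235. The measurement was ChIP-seq, chromatin immunoprecipitation followed by sequencing, of the transcription factor ATTF-5, named for its AT-hook, a short protein segment that in other AT-hook proteins contacts the minor groove of A/T-rich DNA. The samples form 1 group of 2 biological replicates, which the labels number 1 and 3. They are whole young adults aged 66 hours, pooled male and female, of strain OP724. That strain carries the unc-119 mutation tm4063 and the integrated transgene wgIs724, in which attf-5 is fused at its C terminus to TY1, EGFP and 3xFLAG beside a rescuing unc-119 gene. The immunoprecipitation used an anti-GFP antibody, so the profile is that of the tagged protein in this line. The transgene also adds copies of attf-5 and unc-119 sequence, and the nearest V1 gene to either locus, vha-14, lies 1394541 bp from unc-119. Cell types cannot be separated in whole animals, and there was no second condition, so no test between groups was possible.

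The V-ATPase is a proton pump that acidifies lysosomes, endosomes and secretory compartments. Its cytosolic V1 sector hydrolyses ATP and turns a central rotor, which drives protons through the membrane-bound V0 sector. The A and B subunits form the catalytic head, D and F the rotor, E and G the outer stalks, C the joint between the outer stalks and V0, and H a regulator of the coupling. In *C. elegans* these are encoded by vha-13 (A), vha-12 (B), vha-11 (C), vha-14 (D), vha-8 (E), vha-9 (F) and vha-10 (G), with vha-15 and vha-18 both encoding H.

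ATTF-5 peaks were present at the promoters of 6 of the 9 V1 genes: vha-13, vha-12, vha-14, vha-8, vha-9 and vha-15. A peak here is a region of the authors' thresholded list of 3331 regions, kept for reproducibility between the replicates. A promoter peak is one whose summit, the base of highest enrichment, lies from 1000 bp upstream to 200 bp downstream of the gene's annotated 5′ end. The share of V1 genes with one was 66.7%, beside 12.3% of all protein-coding nuclear genes. The gene set was chosen with earlier results of these data known, so this is a description and not a blind comparison. The 3 V1 genes without a promoter peak were vha-11, vha-10 and vha-18. By subunit, both genes of the catalytic head (A and B) and both of the rotor (D and F) had a peak. Of the outer-stalk genes E had one and G did not, of the H genes vha-15 had one and vha-18 did not, and the C gene had none.

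The bases under the summits are shown for the 5 V1 promoter peaks whose central 101 bp touch no annotated UTR, because the summits were less A/T-rich than their surroundings. Each sequence runs 5′ to 3′ on the strand of the gene, with 50 bases on either side of the summit, and was read from the WBcel235 genome, whose coordinates are those of ce11. They lie at chrIV:6790567-6790667 (vha-8, plus strand), chrX:4190705-4190805 (vha-12, plus strand), chrX:2237586-2237686 (vha-15, plus strand), chrII:10303860-10303960 (vha-9, minus strand) and chrIII:9507953-9508053 (vha-14, plus strand). Capitals mark the word GAGAGA, the word ACGCAG and the word GAGCGC on either strand, and the counts of each word come with the base content.
vha-8: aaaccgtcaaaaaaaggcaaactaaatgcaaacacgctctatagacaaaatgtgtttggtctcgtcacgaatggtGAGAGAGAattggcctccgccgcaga
vha-12: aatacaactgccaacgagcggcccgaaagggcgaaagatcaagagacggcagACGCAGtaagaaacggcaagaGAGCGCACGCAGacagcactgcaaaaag
vha-15: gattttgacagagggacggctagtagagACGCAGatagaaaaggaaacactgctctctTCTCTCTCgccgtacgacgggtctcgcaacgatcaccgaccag
vha-9: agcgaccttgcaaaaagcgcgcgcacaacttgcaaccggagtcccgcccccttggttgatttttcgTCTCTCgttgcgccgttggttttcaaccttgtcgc
vha-14: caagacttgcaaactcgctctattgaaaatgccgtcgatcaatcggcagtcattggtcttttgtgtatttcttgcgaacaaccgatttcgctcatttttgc

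The catalytic head genes had strong to intermediate peaks. Signal here is the authors' enrichment value for a region, in their own scale, so values of different lists are not on a common scale. At vha-13 (WBGene00013025, V 14351709 to 14354422), which encodes the ATP-hydrolysing A subunit, the signal was 207.2 in replicate 1 and 212.2 in replicate 3, and 419.0 in the pooled and thresholded lists. Its summit lay 532 bp upstream of the 5′ end, in the annotated 3′ UTR of cept-2, the next gene upstream on the same strand. The 2 genes are 226 bp apart. At vha-12 (WBGene00006921, X 4191094 to 4193144), which encodes the nucleotide-binding B subunit, the signal was 127.5 in replicate 1 and 135.9 in replicate 3, and 263.3 in the pooled list. This summit lay 339 bp upstream in intergenic sequence, and the next protein-coding gene upstream, mrp-6, was 4337 bp away. In both replicates vha-13 stood above vha-12, and the replicate values of the 2 genes did not overlap.

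The rotor genes had weaker peaks, closer to their 5′ ends than those of the catalytic head genes. At vha-14 (WBGene00010130, III 9508100 to 9509757), encoding the D subunit that forms the rotor shaft, the signal was 54.6 in replicate 1 and 73.2 in replicate 3, and 125.3 in the pooled list, with the summit 97 bp upstream. At vha-9 (WBGene00006918, II 10303050 to 10303713), encoding the small F subunit that binds the shaft, it was 71.2 in replicate 1 and 63.0 in replicate 3, and 134.4 in the pooled list, with the summit 197 bp upstream. The replicate values of the 2 rotor genes overlapped, so their order is within the spread. Both summits were intergenic. The gene next upstream of vha-9, the receptor guanylate cyclase gene gcy-4, lies on the same strand and is 425 bp away, while that of vha-14, the superoxide dismutase gene sod-4, is 7724 bp away.

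The outer-stalk genes were split. The highest signal of all V1 genes was at vha-8 (WBGene00006917, IV 6791074 to 6792455), which encodes the E subunit, with 238.6 in replicate 1, 234.1 in replicate 3 and 466.9 in the pooled list. Its summit was 457 bp upstream and lay between vha-8 and the oppositely transcribed C17H12.2, whose 5′ end is 586 bp from that of vha-8. The summit was at an offset of −129 bp from the 5′ end of C17H12.2, the nearer of the pair, and the peak was the only V1 promoter peak shared with another protein-coding gene. Sharing of this kind was found for 642 of 1891 promoter peaks (34.0%) in all.

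The G subunit gene vha-10 (WBGene00006919, 5609341 to 5610270) had no peak. The strongest region in its window had a signal of 38.3 in replicate 1, 38.6 in replicate 3 and 76.5 in the pooled list, where the weakest thresholded peak of the series has 89.6. This region ranked 4149 of 30000 pooled regions, with a −log10 q of 2.64. Its summit lay 445 bp upstream, within the next upstream gene trpp-8, which is on the same strand and ends 103 bp before vha-10.

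The C subunit gene vha-11 (WBGene00006920, IV 2307815 to 2314567) had low values in its own window, 21.5 in replicate 1, 14.4 in replicate 3 and 28.3 in the pooled list. These values are not of a single site. The summit lay 46 bp downstream of the 5′ end in the pooled list and 49 bp downstream in replicate 1, but 565 bp upstream in replicate 3. The values of vha-11 were the lowest of the 9 in replicate 3 and the pooled list, while vha-18 was lowest in replicate 1. The gene vha-11 lies 892 bp downstream of the V0 gene vha-3 on the same strand. The pair is described in the literature as an operon, in which genes are transcribed together from an upstream promoter. A thresholded peak of signal 214.2 lay upstream of both, 1051 bp from the 5′ end of vha-3 and 2429 bp from that of vha-11, so it fell outside each window. Replicate 1 gave 119.3 there and replicate 3 gave 95.4. That summit was 423 bp downstream of the 5′ end of Y38F2AL.12, a gene on the other strand, in its annotated 5′ UTR. Whether this region serves vha-3, vha-11 or Y38F2AL.12 was not tested.

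Of the 2 genes for the H subunit, which regulates the coupling of V1 to V0, vha-15 had a promoter peak and vha-18 had none. At vha-15 (WBGene00020507, X 2237911 to 2240255) the signal was 84.9 in replicate 1, 67.1 in replicate 3 and 158.1 in the pooled list, with the summit 275 bp upstream in intergenic sequence. At vha-18 (WBGene00018698, V 8411775 to 8413482) the strongest region had 15.7 in replicate 1, 24.1 in replicate 3 and 40.9 in the pooled list, with a −log10 q of 0.611 in the pooled list. Both replicate values of vha-15 were above both of vha-18. With 2 replicates and no second condition, this difference has no test.

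**Figure D1:**
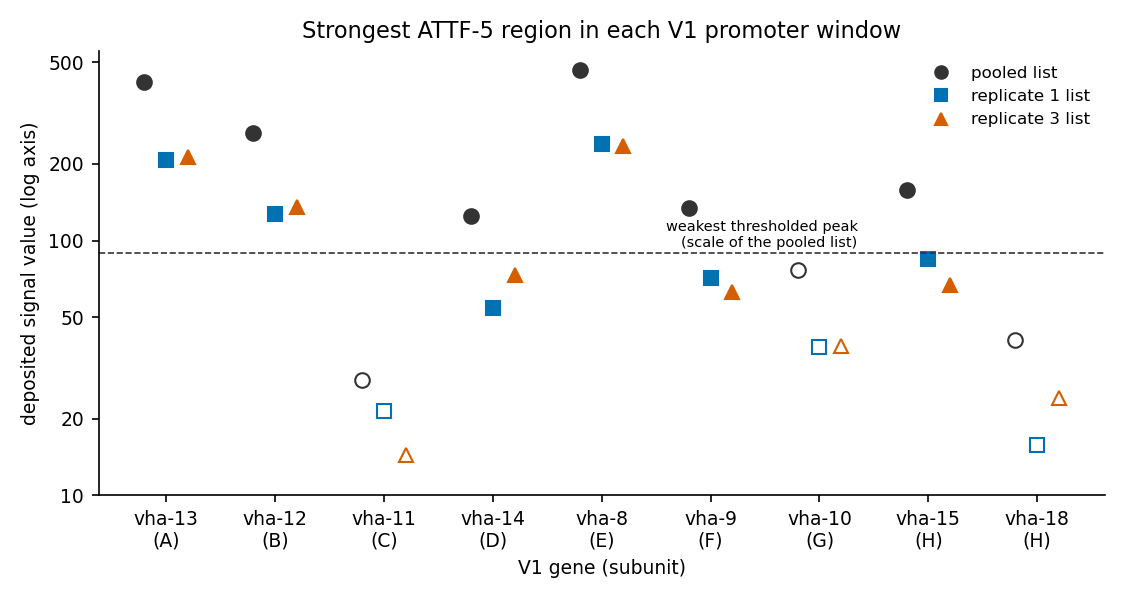
The deposited signal value (log axis) of the strongest region in each V1 promoter window, by gene and subunit, in the pooled, replicate 1 and replicate 3 lists. Filled symbols are genes with a thresholded peak and open symbols those without, and the dashed line is the weakest thresholded peak, 89.6, on the scale of the pooled list. The replicate values lie between 54.6 and 238.6 at the 6 genes with a peak, and between 14.4 and 38.6 at the other 3.

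Across the 9 genes the order of replicate signals was vha-8, vha-13, vha-12, then vha-15, vha-9 and vha-14, then vha-10, then vha-18 and vha-11. The first 3 and vha-10 were separated from their neighbours in both replicates. Within the group of vha-15, vha-9 and vha-14, the values of neighbours overlapped across the replicates, though vha-15 stood above vha-9 within each. The order of vha-9 and vha-14 differed between the replicates, as did that of vha-18 and vha-11. All 9 windows held at least 1 region of the pooled list, of the replicate 1 list and of the replicate 3 list. The share of all protein-coding genes with such a region was 38.6% for the pooled list, 38.7% for replicate 1 and 40.0% for replicate 3. These lists were deposited as peaks and background, so such a region need not be binding. The median signal of the strongest window region was 134.4 over the 9 V1 genes and 53.8 over the 7709 genes with a pooled region.

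**Figure D2:**
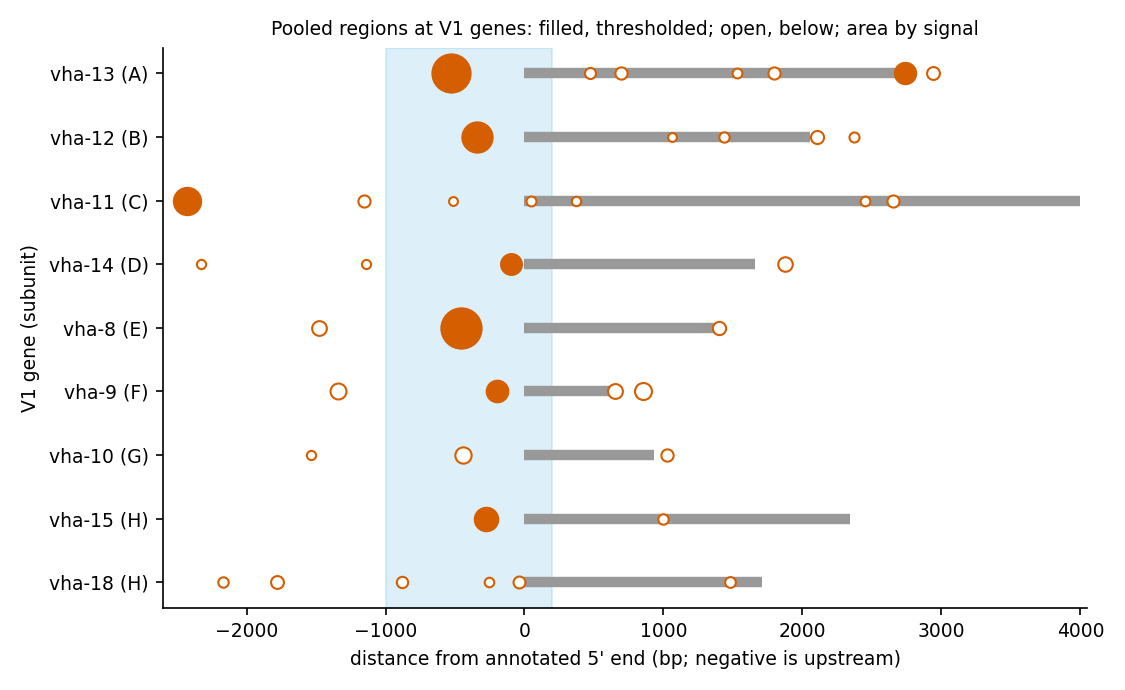
Summits of pooled regions along each V1 gene by distance from its annotated 5′ end in bp, with the promoter window shaded, the gene as a grey bar and circle area proportional to signal (filled, in the thresholded list; open, below it). The bar of vha-11 is cut short of the gene's full length of 6753 bp, and its pooled summits beyond the cut are not drawn. The 6 promoter peaks lie 97 to 532 bp upstream, and the filled circle upstream of vha-11 is the region 2429 bp from its 5′ end.

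The 6 V1 promoter peaks all lay upstream of the annotated 5′ end, at a median of −307 bp. Over all 2461 genes with a promoter peak the median was −238 bp, with quartiles of −426 and −128 bp. The summits of vha-13 and vha-8 lay beyond the outer quartile and that of vha-14 inside the inner one. Inside the V1 genes themselves no thresholded summit was found. A second thresholded peak near vha-13, of signal 130.8, lay 26 bp past its 3′ end and 38 bp downstream of the 5′ end of the next gene, Y49A3A.3. Replicate 1 gave 61.9 and replicate 3 gave 66.1 at that summit.

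Among all genes with a promoter peak, the V1 genes spread from high to lower ranks, with vha-12 in between. By the signal of its strongest peak vha-8 ranked 159 of 2461, vha-13 ranked 232 and vha-12 ranked 581. The peak of vha-8 was 3.27 times the median thresholded peak, that of vha-13 was 2.94 times and that of vha-12 was 1.85 times. The remaining ranks were 1312 for vha-15, 1617 for vha-9 and 1739 for vha-14, and their signals ran from 0.878 to 1.11 times the median. The median over the 6 V1 genes was 210.7, beside 164.4 over all 2461.

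**Figure D3:**
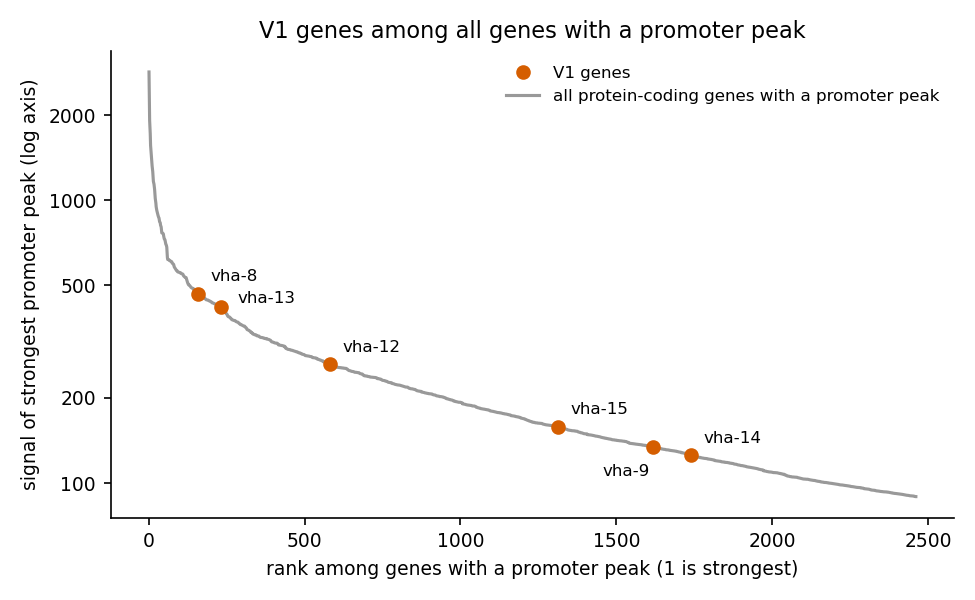
Signal of the strongest promoter peak (log axis) against rank for the 6 V1 genes with a peak (labelled points) and all 2461 protein-coding genes with a promoter peak (line). The points of vha-8, vha-13 and vha-12 sit at ranks 159, 232 and 581, and vha-15, vha-9 and vha-14 at 1312 to 1739.

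The replicates gave similar values at the V1 promoter peaks. The log2 ratio of replicate 1 to replicate 3 was 0.03 at vha-8, −0.03 at vha-13 and −0.09 at vha-12. It was 0.17 at vha-9, 0.34 at vha-15 and −0.42 at vha-14. Over the 3182 thresholded peaks matched to both replicates, each by a summit no more than 100 bp away, the median ratio was 0.13 with an SD of 0.52, and the quartiles were −0.17 and 0.43. Thus 5 of the 6 ratios lay between those quartiles, and that of vha-14 lay below them. Values were not scaled between replicates, and their depth is unknown. The replicate summits lay 3 bp apart at vha-8 and at vha-14, 11 bp at vha-13, 27 bp at vha-9, 29 bp at vha-12 and 69 bp at vha-15.

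**Figure D4:**
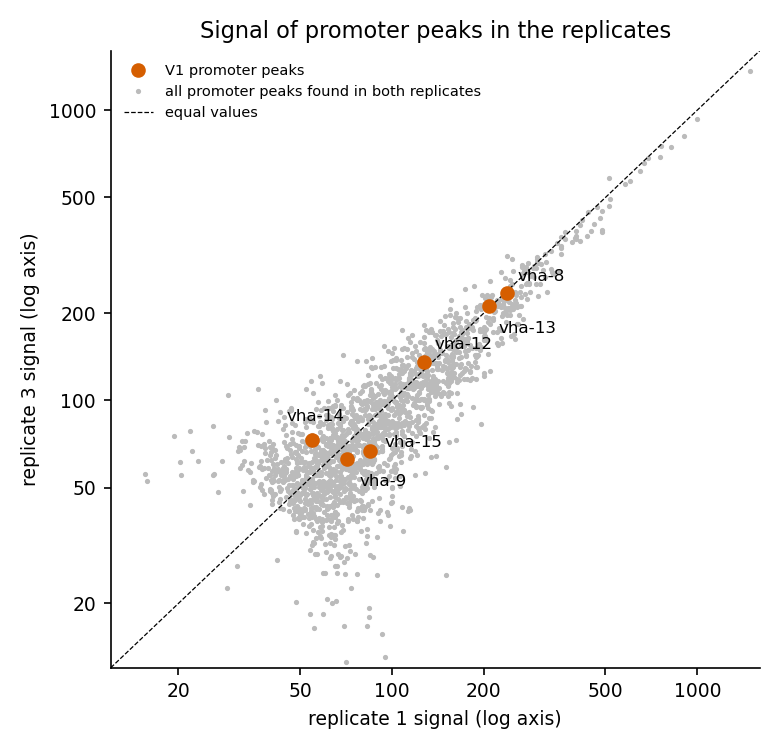
Replicate 3 signal against replicate 1 signal (both log axes) for the 6 V1 promoter peaks (large labelled points) and all promoter peaks found in both replicates (small points), with the dashed line at equal values. The points of vha-8, vha-13 and vha-12 lie close to the line, and vha-14 is the V1 point farthest above it, at 54.6 in replicate 1 and 73.2 in replicate 3.

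By the likeness of log2 signal over the thresholded, replicate 1 and replicate 3 lists, 3 promoter peaks were nearest to that of vha-8. They were those of chmp-7, which encodes an ESCRT-III-related membrane remodelling protein (472.4 pooled, 239.8 in replicate 1 and 233.8 in replicate 3), of F09E5.11 (481.3, 243.4 and 234.7) and of atp-1, which encodes the α subunit of the mitochondrial ATP synthase (470.0, 231.2 and 228.5). The distances on the log2 scale were 0.0186, 0.0526 and 0.0580. Each of these peaks is named by the nearest protein-coding 5′ end, a rule that would name the vha-8 peak for C17H12.2. The peaks named for F09E5.11 and atp-1 also lay in the window of another gene.

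The V1 summits were poorer in A and T than the sequence beside them. Within 50 bp of the summit the A/T share was 38.6% at vha-13, 43.6% at vha-9, 45.5% at vha-12, 46.5% at vha-15, 55.5% at vha-8 and 57.4% at vha-14. At 150 to 200 bp on either side it was between 57.8% and 78.4%. The difference, summit minus flank, ran from −34.9 percentage points at vha-9 to −19.2 at vha-13. Over all 1891 promoter peaks the median difference was −11.3, with quartiles of −19.1 and −3.42, so each V1 difference lay beyond the lower quartile. The median share at summits was 53.5% over all promoter peaks, beside 66.3% in windows of the same length placed at the median offset, −238 bp, from the 5′ ends of 17512 genes with no peak. No test was made of the 6 V1 peaks against the rest.

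**Figure D5:**
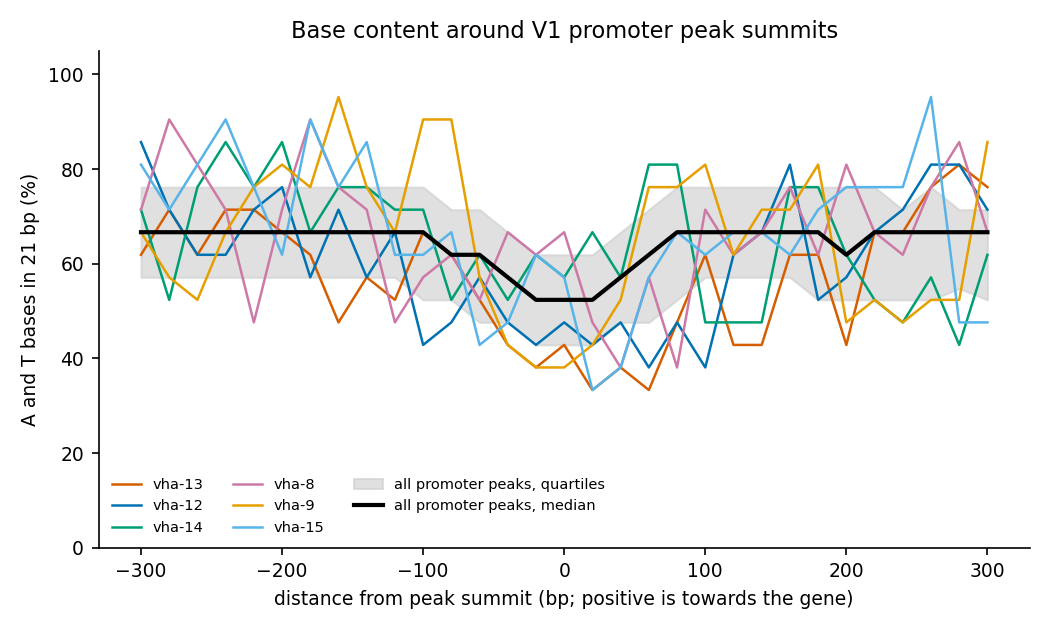
Share of A and T bases in windows of 21 bp by distance from the peak summit, for the 6 V1 promoter peaks (coloured lines) and for all 1891 promoter peaks (black line, median; grey band, quartiles). The median over all promoter peaks is 52.4% at the summit and 66.7% at 100 bp on either side, and vha-13 and vha-15 fall to 33.3% at 20 bp downstream of the summit.

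At least 1 of the short words picked as common under other ATTF-5 promoter peaks was found under most V1 summits, but only GAGAGA was at most of them by itself. GAGAGA was present within 50 bp of the summit at vha-8, vha-13, vha-9 and vha-15, ACGCAG at vha-12 and vha-15, and GAGCGC at vha-12 alone of the 6. The words were picked from the 1885 promoter peaks outside the V1 genes, after the data had been seen. They were ranked by how much more often they occurred there than at the 17512 promoters with no peak. Each unbound promoter was read as a single stretch of 101 bp, centred at an offset of −238 bp from the 5′ end. The median A/T share was 66.3% in those stretches, beside 53.5% at the summits of all promoter peaks. The word shares were not adjusted for base content. The word GAGAGA, which reads TCTCTC on the other strand, occurred within 50 bp of 23.7% of the 1885 summits and at 6.03% of the unbound promoters. The word ACGCAG, in reverse complement CTGCGT, was at 321 of the 1885 summits and at 2.20% of the unbound promoters. For GAGCGC, in reverse complement GCGCTC, the shares were 15.7% and 1.43%. Thus 5 of the 6 V1 summits held at least 1 of these words, beside 45.5% of other promoter peaks and 9.03% of unbound promoters, and vha-14 held none. In the sequences given, the copies of GAGAGA at vha-8 and of TCTCTC at vha-15 overlap each other. In vha-12 the words GAGCGC and ACGCAG stand directly beside each other. A match is a description of the letters and not of a binding site.

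Words fixed from knowledge of other factors were searched in the V1 promoters as well. The E-box CACGTG, the core of sites bound by the TFEB homologue HLH-30, a regulator of lysosomal genes, was absent from the 300 bp from 250 bp upstream of the 5′ end in all 9 V1 genes, beside a match in 5.82% of all protein-coding promoters of that length. It was also absent within 150 bp of all 6 V1 summits, beside 7.88% of all promoter peaks. TGATAA, a form of the GATA site, was in the 300 bp of 1 of the 9 genes, vha-13, a share of 11.1%, beside 30.2% of all promoters. AAATTT, an A/T-only word of the kind AT-hooks contact, was in 5 of the 9, a share of 55.6%, beside 53.0% of all promoters. Within 150 bp of the summit it was at 0 of the 6 V1 peaks, beside 45.1% of all promoter peaks, while TGATAA was there at vha-15 alone of the 6, beside 23.2%. Both strands were searched, and no match says only that these letters are not in that window.

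Other genes of the same complex served as context. Of 12 V0 genes, 5 (41.7%) had a promoter peak, beside 12.3% of all protein-coding nuclear genes. They were vha-1 (431.1), vha-17 (246.3), vha-19 (148.2), vha-16 (143.7) and unc-32 (106.4). The V0 gene vha-4 fell just short, with a pooled region of signal 89.46 in its window, where the weakest thresholded peak has 89.56. The sperm paralogue of the B subunit gene, spe-5, had no promoter peak, and the strongest pooled region in its window had a signal of 42.7. Both rabconnectin genes, whose products aid assembly of V1 with V0 in other organisms, had a promoter peak, rbc-2 at 449.5 and rbc-1 at 119.5. As at vha-8, some of these peaks also lay in the windows of other genes: that of vha-1 in the window of sqv-3, that of vha-17 in the window of F49C12.12, whose 5′ end is nearer, and that of rbc-2 in those of ndua-8 and Y54F10AM.15.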

How the data were processed

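ChIP-seq peak lists of 2 biological replicates were analysed. The deposited files are 4 lists in narrowPeak format, in ce11 coordinates. Per the labels and the text files deposited with them, each replicate list and the pooled list were made from the alignments and a control, and the thresholded list from the other 3 by irreproducible discovery rate. The authors' signal value per region was used as given. The deposited −log10 q values were used for description. No source used here names the peak caller or the depth. The 3331 thresholded regions were the same as the 3331 strongest pooled regions.

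Gene 5′ ends came from Ensembl release 115, and sequences from the RefSeq copy of WBcel235. For each gene the strongest summit in the window was taken. Replicate values were matched within 100 bp. No test was run, since there was 1 group. The steps were tested on simulated positions with Python 3.11.15 and pandas 2.3.3. All 9 members are named, and other genes followed a rule: the V0 and assembly lists, genes sharing a V1 peak and the 3 peaks most like that of vha-8. Neighbouring genes were named where a summit lay in or near them, after the values were seen. The members and lists were chosen with earlier results of these data known.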

Additional observations from a re-analysis of the deposited data

How the results depend on the processing

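The count of V1 genes with a promoter peak was 6 and lay between 4 and 6 over the 9 alternatives, all within 1.5 times. With the narrower window, 500 bp before the 5′ end to 100 bp after it, vha-13 was lost. With each peak given to the nearest 5′ end within 2000 bp, vha-8 was lost. Each left 5, beside 9.61% and 11.6% of all protein-coding genes. With peaks above the median signal vha-9 and vha-14 were lost, leaving 4, beside 7.43% of all protein-coding genes. The same 6 genes had a peak without replicate 1 and without replicate 3, when the 3331 strongest regions of the other replicate were used. The shares of all protein-coding genes were then 12.4% and 11.8%. The strongest pooled regions gave 6 by construction, being the thresholded list itself. The signals of single V1 peaks were fixed by construction under the alternatives that kept the peak, being the deposited values of the same regions. The exceptions were the 12 values from 1 replicate alone, which are on that replicate's own scale. The V0 count of 5 ranged from 4 to 6, while the share of all protein-coding genes ranged from 7.43% to 13.2% over the same settings. The log2 ratios kept their sign with replicate summits matched within 50 or 200 bp, except that no summit lay within 50 bp at vha-15 in replicate 3. Unknown depth limits comparison of signal between lists. No paired analysis was possible because there was 1 group and no test.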

Other observations

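A strong region next to vha-10 was present in both replicates and had no summit of the pooled list within 100 bp. Replicate 1 had a signal of 92.2 there, rank 1223, with its summit 283 bp past the 3′ end of vha-10, and replicate 3 had 91.8, rank 1077, at 318 bp past it. The summits lie upstream of ubl-5, the next gene downstream on the same strand, which encodes a ubiquitin-like protein. A pooled region of signal 43.6 overlapped both replicate regions, with its summit 98 bp past the 3′ end of vha-10. Of 2319 strongest regions of replicate 1 with a strong replicate 3 summit within 100 bp, 40 (1.72%) had no pooled summit within 100 bp. The cause was not tested.

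The longest words shared by pairs of V1 summit stretches had 9 bases. The word shared by vha-8 and vha-15, GAGAGAGAA, was within 50 bp of 1.59% of other promoter peak summits and at 0.394% of the promoters with no peak. Those promoters were read in the same stretches as above, again with no adjustment for base content. That shared by vha-13 and vha-15, CTGCTCTCT, was at 0.318% and 0.0571%, and that shared by vha-9 and vha-12, CTTTTTGCA, at 0.371% and 0.303%. Of the 8-base words, AGACGCAG, shared by vha-12 and vha-15, had the highest share at other summits, 9.60%, and was at 0.765% of the promoters with no peak. It contains ACGCAG, a word already picked for being frequent at those summits. The other 8-base words were at 1.11% to 2.97% of other summits. All these words were noticed in these sequences and have no test.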
